A study of Mus musculus with 2 samples.

Results

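Basophil progenitors were taken from single-cell RNA libraries of mouse bone marrow as cells with at least 10 summed UMIs of Prss34 and Mcpt8, the transcripts of a pair of basophil granule proteases, and with under 1% of their UMIs from 6 neutrophil genes (Ltf, Camp, Ngp, S100a8, S100a9 and Lcn2). A UMI, or unique molecular identifier, marks 1 captured transcript. The rule found 77 cells among 14068 cells kept after quality filtering and 15710 deposited barcodes, 43 from the control and 34 from the library whose label says that Utx was deleted. Both libraries hold bone marrow cells sorted for CD45.2 and Kit 10 weeks after transplantation. The labels separate them only by the deletion of Utx, a histone H3 demethylase gene also called Kdm6a, and that library is called Utx-labelled here. Each condition is 1 library, so differences between them have no replicate check, and all intervals below cover counting error only. Cells were stained with 2 antibody hashtags, whose meaning the labels do not give, and 1 control member and 48 and 40 other kept cells could be assigned to neither. That member is in the lowest band described below and is left out of values by hashtag. Values are shown for each hashtag where they matter, and a hashtag was not taken as a replicate. The labels name neither a Cre driver, nor the deleted part of the gene, nor the number of mice behind a library. The comparison asks how these rare cells differed between the Utx-labelled library and the control.

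Basophils are short-lived granulocytes that arise in the bone marrow from progenitors shared in part with mast cells, under the control of GATA and C/EBP transcription factors and of interleukin-3. They carry the high-affinity IgE receptor, whose alpha chain is encoded by Fcer1a, beta chain by Ms4a2 and gamma chain by Fcer1g. On activation they release histamine, proteases, leukotrienes and interleukin-4. As progenitors of the lineage mature they lose surface Kit (CD117) and CD34 and fill their granules with proteases such as Mcpt8 and Prss34.

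Promoters were searched for marker genes that were higher along the protease gradient described below together with Gata2, or, for Prss34 and Mcpt8, define it. GATAA, a core of the site that GATA factors bind, was searched on both strands in the 120 bases before the annotated start of 5 genes: Prss34, Mcpt8, Fcer1a, Ms4a2 and Cpa3, a carboxypeptidase of basophil and mast cell granules. It was present in 4 of them and in 10.5% of 32851 mouse promoters of the same length. The genes were picked because they mark these cells, so the count is a description, and a match of letters is not a binding site. The sequences are from RefSeq on build GRCm38.p6, the same assembly as the mm10 of the deposited counts, 5′ to 3′ along the gene, with each match of GATAA or its reverse complement in capitals. Prss34 is at chr17:25298274-25298393 on the plus strand. Fcer1a is at chr1:173227230-173227349, Ms4a2 at chr19:11623720-11623839 and Cpa3 at chr3:20242182-20242301, all on the minus strand. Only the 4 windows with a match are printed. The window of Mcpt8 held no such letters, and annotated transcripts of that gene start at different places.
Prss34: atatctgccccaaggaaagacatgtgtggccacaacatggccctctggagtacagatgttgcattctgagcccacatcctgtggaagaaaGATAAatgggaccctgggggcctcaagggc
Fcer1a: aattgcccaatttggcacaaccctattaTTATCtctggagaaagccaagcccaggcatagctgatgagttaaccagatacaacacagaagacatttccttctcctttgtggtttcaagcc
Ms4a2: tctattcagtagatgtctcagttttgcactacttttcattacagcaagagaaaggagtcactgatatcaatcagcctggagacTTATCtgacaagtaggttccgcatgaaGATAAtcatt
Cpa3: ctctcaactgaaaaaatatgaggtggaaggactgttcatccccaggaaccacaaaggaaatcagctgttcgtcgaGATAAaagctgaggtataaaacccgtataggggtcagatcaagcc

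Marker genes that the rule did not use fit the label of basophil progenitors for most members, but not for all. Ms4a2 was detected in 41 of 43 control members and in 32 of 34 members of the Utx-labelled library, and Fcer1a in 36 and 23. Their summed levels were 1100 and 889 UMIs per 1000000 (CPM) for Ms4a2 and 626 and 344 CPM for Fcer1a. In cells under the same neutrophil limit but with no Prss34 or Mcpt8 UMI (1292 and 1253 cells), Ms4a2 stood at 29.7 and 19.1 CPM and Fcer1a at 4.22 and 4.04 CPM. Members with fewer than 5 UMIs of both receptor chains together numbered 3 in the control and 5 in the Utx-labelled library, and in 2 of each neither chain was seen. The 5 were all in the range of lowest protease content described below, held 83 to 244 Mpo and 16 to 208 Elane UMIs, and 3 of them had no Cpa3 UMI. A further 6 Utx-labelled and 2 control members carried a mast cell protease transcript and no Prss34, 1 of them already counted above, and are described below. All these cells are members by the rule, and the marker genes do not settle the label for them. Members had a median of 19716 UMIs in the control and 17916 in the Utx-labelled library, against 12390 and 11301 in all other kept cells. Their median number of detected genes was 5070 and 4610. In neutrophil-rich cells, which should lack these genes, a Prss34 UMI was present in 0.798% and 0.259% of cells and a Mcpt8 UMI in 1.87% and 0.758%, at median depths of 9823 and 9712 UMIs. No member shared its barcode with the other library.

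Markers of other cell types differed by list. Lists of 6 monocyte, megakaryocyte, erythroid, B cell and dendritic genes each summed to at most 169 CPM in the control and 192 CPM in the other library, below their level in the neutrophil-low cells. Transcripts of neutrophil progenitors (Elane, Mpo, Prtn3, Ctsg, Fcnb and Ms4a3) summed to 7128 and 8001 CPM, below the 12019 and 20499 CPM of neutrophil-low cells without Prss34 and Mcpt8. Eosinophil and mast cell genes were high in a few members each and are described below. The stem cell list summed to 175 and 222 CPM in the members and to 394 and 188 CPM in the neutrophil-low cells, so it was above them in the Utx-labelled library. The T or NK list was at 421 and 130.5 CPM against 354 and 307 CPM, above them in the control. Of its genes only Nkg7 was seen in members, with Cd3e, Cd3d, Trbc2, Ncr1 and Gzma at 0 in both libraries. Camp, a gene of maturing neutrophils and part of the neutrophil limit, was at 179 and 223 CPM in the members and at 176 and 204 CPM in the neutrophil-low cells, against 50327 and 52795 CPM in neutrophil-rich cells.

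Other genes of the effector programme also stood out against the neutrophil-low cells without Prss34 and Mcpt8 (chosen after their values were seen, and given as a description). Rnase12, a secreted ribonuclease, was at 294 and 164 CPM in members and at 4.73 and 2.61 CPM in those cells. Csf1, which encodes a macrophage growth factor, was at 123 and 140 CPM against 3.25 and 2.05 CPM. Alox5, the lipoxygenase that opens leukotriene synthesis, was at 237 and 189 CPM against 6.58 and 6.28 CPM. Cpa3 was at 2914 and 2594 CPM against 83.4 and 90.3 CPM. Gata2, a transcription factor of the basophil and mast cell lineages, was at 660 and 468 CPM against 91.5 and 49.7 CPM, and Ikzf2, an Ikaros family factor, was at 1189 and 1035 CPM against 218 and 192 CPM. At the other end, the antibody light chain gene Igkc, the B-lineage factor Ebf1 and the erythroid Car1 had at most 2 UMIs in the members of either library. Of 5533 genes with at least 50 UMIs in the members, 346 (6.25%) in the control and 317 (5.73%) in the Utx-labelled library had levels 2-fold or more above those cells, and 61 (1.1%) and 60 (1.08%) 2-fold or more below. The cells were selected on transcripts, and the limit of 50 UMIs in the members removes genes that are low in them, so neither the counts nor their balance is a test.

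Members made up 0.606% of kept control cells (43 of 7098, 95% exact Clopper-Pearson interval 0.439 to 0.815) and 0.488% of kept cells of the Utx-labelled library (34 of 6970, 0.338 to 0.681). The difference of -0.118 percentage points had a Newcombe interval from -0.369 to 0.13, so no difference was detectable at this number of cells. Among neutrophil-low cells the shares were 2.52% (of 1708) and 2.18% (of 1558). The shares in hashtag 1 and hashtag 2 cells were 0.652% and 0.544% in the control and 0.461% and 0.517% in the Utx-labelled library. Both libraries had 6 members at 10 to 14 Prss34 and Mcpt8 UMIs, just inside the limit, and 16 neutrophil-low cells at 5 to 9, just outside it. A single control cell with 346 such UMIs was left out because 5.92% of its UMIs were neutrophil transcripts.

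Because Prss34 and Mcpt8 chose the cells, their levels are a description. Mcpt8 (chr14:56082166-56085273, minus strand) was present in every member, with 1 to 445 UMIs per control cell (median 53) and 10 to 419 in the Utx-labelled library (median 31.5). Prss34 (chr17:25298394-25300165, plus strand) ranged from 0 to 878 UMIs (median 54) in the control and from 0 to 502 (median 0.5) in the other library. It was seen in 34 of 43 control members and in 17 of 34. Summed over members, Mcpt8 was at 4762 and 4459 CPM and Prss34 at 6294 and 3352 CPM. The members held 94.4% and 99.1% of all Prss34 UMIs of the kept cells and 84.0% and 86.2% of the Mcpt8 UMIs.

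Both the amount of the proteases and the balance between them are values that the rule used, and they are given with no test. Median Prss34 and Mcpt8 UMIs per member were 141 in the control and 34.5 in the other library. Prss34 exceeded Mcpt8 in 23 of 43 control members (53.5%) and in 3 of 34 members of the Utx-labelled library (8.82%), where the 34 include 6 cells with mast cell proteases that had no Prss34. It did so in 12 and 11 control members of hashtag 1 and 2, and in 1 and 2 members of the other library. Prss34 made up 56.9% and 42.9% of the summed UMIs of both genes. Among members with 100 or more UMIs of both genes per 10000 UMIs, Prss34 exceeded Mcpt8 in 15 of 19 control cells and in 3 of 12 others.

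**Figure D1:**
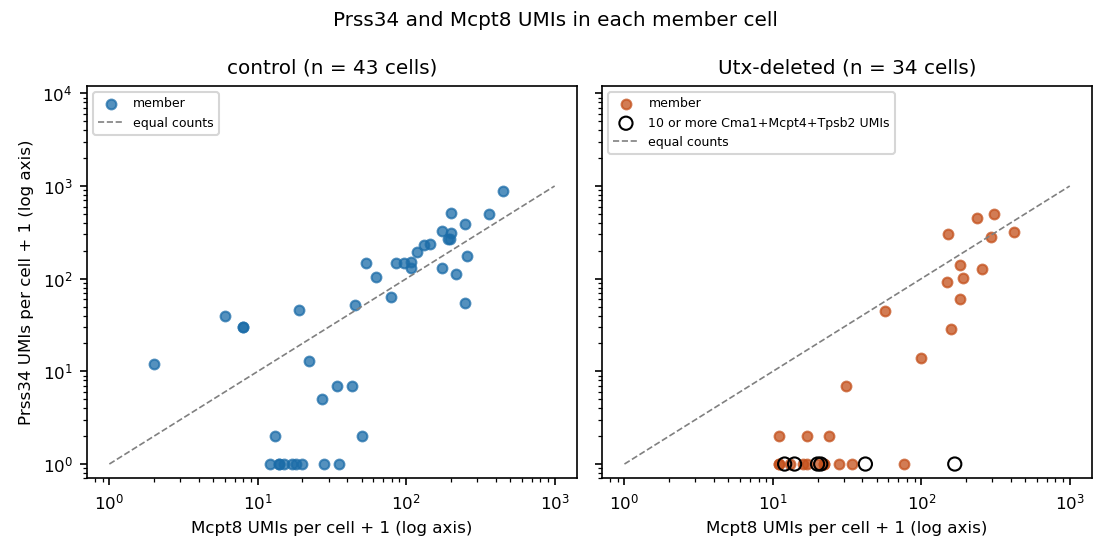
UMIs of Prss34 (vertical) against Mcpt8 (horizontal), each plus 1 on a log axis, with 1 point per member, control on the left (43 cells) and the Utx-labelled library on the right (34 cells). Points above the dashed line have more Prss34 than Mcpt8 (23 control cells, 3 cells of the other library), and rings mark the 6 members with at least 10 UMIs of mast cell proteases, which have no Prss34.

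Members were spread along a gradient of protease content that other readouts followed. They were placed in 3 bands by Prss34 and Mcpt8 UMIs per 10000 UMIs of the cell, which are ranges of a level and not cell types. The band below 20 held 11 control and 15 members of the Utx-labelled library, the band from 20 to 99 held 13 and 7, and the band of 100 or more held 19 and 12. As shares of members these were 25.6% and 44.1%, 30.2% and 20.6%, and 44.2% and 35.3%, given as a description because the rule used the same transcripts. Hashtags were not even in the lowest band, with 8 and 2 control cells of hashtag 1 and 2 against 4 and 11 cells in the other library.

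Surface Kit and CD34 were lower where protease content was higher. Median CD117 tag UMIs went from 129 in the lowest band to 77 and 39 in the next bands of the control, and from 175 to 123 and 36.5 in the Utx-labelled library. The CD34 tag went from 11 to 7 and 6 in the control and from 36 to 26 and 7.5 in the other library. Of the Utx-labelled members, 2, 3 and 1 in the 3 bands carried mast cell proteases, described below. The 3 in the middle band had 1368, 660 and 656 CD117 and 123, 92 and 127 CD34 tag UMIs. The other cells of that band had 47 to 123 and 13 to 26, so its medians are raised by cells set apart below. Across cells, the CD117 tag and the protease level had a Spearman rho of -0.67 over 43 control members and -0.68 over 34 others. This is a description, since the rule used the same transcripts and its floor of 10 UMIs admits the lowest levels only in deep cells. Median UMIs per cell were 26319 and 30736 in the lowest band and 18039 and 14616 in the highest, and tag UMIs were not scaled to depth. The neutrophil elastase gene Elane, a protease of early granulocyte progenitors, went along the same bands from 1854 to 227 and 83.1 CPM in the control and from 1107 to 164 and 61.8 CPM in the other library. A few cells with much Elane, among them members with few receptor UMIs, carried the sums of the lowest band, and its medians per cell were lower, at 507 and 397 CPM. In the middle band the medians per cell were 76.2 and 130 CPM and in the highest 56.9 and 58.5 CPM. Here and below, bands are compared by their values only.

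The IgE receptor genes went the other way. Fcer1a went from 170 to 568 and 997 CPM in the control and from 108 to 226 and 942 CPM in the Utx-labelled library. Ms4a2 went from 570 to 1047 and 1521 CPM and from 567 to 781 and 1678 CPM. Cpa3 went from 1981 to 2477 and 3869 CPM and from 1265 to 4006 and 4927 CPM. All these genes had their highest summed level in the top band of both libraries. Members with mast cell proteases, described below, carried much of the Utx-labelled Cpa3 in the lower bands. The 3 in the middle band held 66, 52 and 95 of its 390 Cpa3 UMIs and 9, 4 and 8 of its 22 Fcer1a UMIs. In the lowest band a single such cell held 292 of 562 Cpa3 UMIs. Medians of Cpa3 per cell were 1839, 2157 and 3853 CPM in the control and 620, 3915 and 3767 CPM in the other library. Cd200r3, an activating receptor of basophils, was at 10.6 and 36.0 CPM in the lowest band and at 392 and 433 CPM in the highest. Gata2 was lowest in the lowest band of both libraries, at 230 and 322 CPM, and was at 831 and 777 CPM in the highest. Medians of Gata2 per cell were 228, 990 and 803 CPM in the control, highest in the middle band. In the other library they were 281.5, 521 and 802 CPM. Spearman rho with the protease level was 0.71 and 0.64 for Fcer1a, 0.58 and 0.68 for Ms4a2 and 0.52 and 0.59 for Gata2, with levels per cell that share the same total. Hdc, the histamine-forming enzyme, had no such relation (-0.016 and -0.0043).

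**Figure D2:**
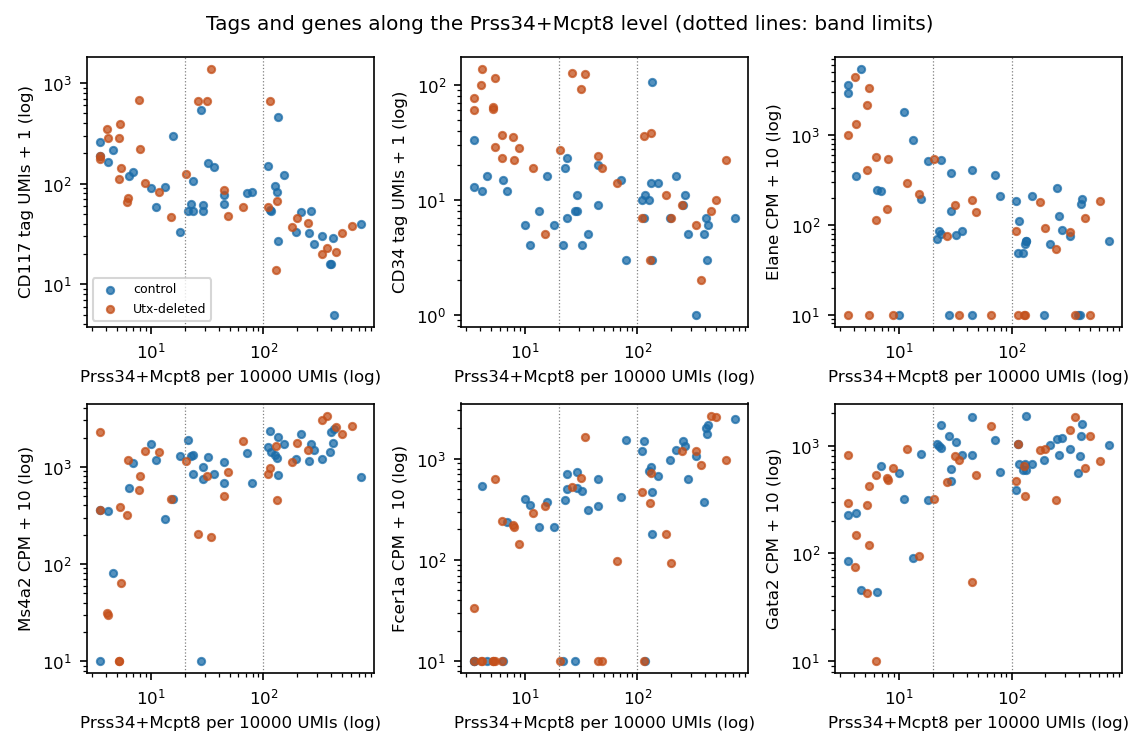
Tag UMIs plus 1 (CD117, CD34) or CPM plus 10 (Elane, Ms4a2, Fcer1a, Gata2) of each member on log axes against its Prss34 and Mcpt8 UMIs per 10000, blue for control and orange for the Utx-labelled library. CD117, CD34 and Elane go down and Ms4a2 and Fcer1a go up from left to right in both libraries. Gata2 is lowest in the left band of both, with its highest control median in the middle band. The dotted lines mark the band limits of 20 and 100.

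A few members carried Cma1, the gene of mast cell chymase, which lies at chr14:55941451-55944675 in the same cluster of protease genes as Mcpt8. Summed Cma1 was 12 UMIs in the control and 731 in the Utx-labelled library, a log2 ratio of 6.12 (counting interval 5.42 to 7.19), with 63.2% of the 731 in a single cell. Members with at least 2 Cma1 UMIs numbered 2 in the control (4.65%, exact interval 0.568 to 15.8) and 6 in the Utx-labelled library (17.6%, 6.76 to 34.5), so the number of such cells was not separated by counting error. These cells were picked by Cma1, and their amounts are a description, with 4 and 7 Cma1 UMIs in the control cells and 34 to 462 in the others. Mcpt4, another mast cell protease gene, had 0 UMIs in control members, which allows up to 3.31 CPM, and 34 in the other library, 97.1% of them in 1 cell.

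These 8 cells shared some readouts across libraries and differed in others. None had a Prss34 UMI, and their Mcpt8 UMIs were 16 and 17 in the control and 11 to 167 in the Utx-labelled library. Kit was at 16 and 22 UMIs and at 12 to 56, against a median over all members of 2 and 4. The CD117 tag was at 295 and 543 UMIs and at 388 to 1368, against member medians of 62 and 83.5. Gzmb (granzyme B) had 4 and 28 UMIs in the control cells and 3 to 44 in the others, and it had only 4 and 0 UMIs in all remaining members together. Mitf, a transcription factor of mast cells and melanocytes, had 8 and 9 UMIs and 2 to 16. Ms4a2 had 0 and 5 UMIs and 1 to 14, and Fcer1a 0 and 4 and 0 to 15. Among the 13 tags, CD34 had 7 and 15 UMIs in the control cells and 34 to 127 in the others. CD48 had 751 and 887 against 323 to 744. With so few cells some of the tags can separate by order alone, and tag UMIs were not scaled to depth, so both are a description. No hashtag held all of them (1 and 1, 3 and 3). Outside these cells, 7 of 41 control members and 11 of 28 others had no Prss34 UMI.

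Eosinophil granule genes were likewise held by few members. Prg2, the gene of eosinophil major basic protein, had 459 UMIs in the control and 2185 in the Utx-labelled library, of which 450 and 2176 were in 3 members of each. The control cells had 12 to 344 Prg2 UMIs and the others 43 to 1143. These cells had no Cma1 UMI, and their Mcpt8 UMIs were 14 to 21 and 10 to 180. The 3 control cells were all in the band below 20, as were 2 of the others.

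The check of the targeted gene did not separate the libraries. Kdm6a (chrX:18162575-18279936) had 141 UMIs in 38 of 43 control members (156 CPM) and 137 UMIs in 32 of 34 members of the Utx-labelled library (186 CPM), a log2 ratio of 0.26 (-0.09 to 0.61). Counting at the 3′ end of transcripts need not see a deleted internal exon, so this level checks the label in neither direction. Of 10 genes of the UTX, MLL3 and MLL4 complex with at least 20 UMIs, none was past 2-fold, where 6.04% of all 8348 such genes were, so a count of 0 in a list of this size is near the background. Their median log2 ratio was -0.20, against -0.03 over all of them. The PRC2 genes, whose product places the mark that UTX removes, likewise had 0 of 8 past 2-fold and a median of -0.20.

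Between libraries, summed UMIs of the members were compared gene by gene as log2 ratios of CPM with 1 UMI added to each sum. Of 5533 genes with at least 50 UMIs, 55 (0.994%) were at least 2-fold higher in the Utx-labelled library and 126 (2.28%) at least 2-fold lower. Together these were 181 genes (3.27%), and no test could be made with 1 library a group. With the same sign in both hashtags, 54 (0.976%) were higher and 121 (2.19%) lower. As a scale for the spread within a library, hashtag 2 and hashtag 1 members of the control differed by 2-fold or more in 322 genes (5.82%) and those of the other library in 260 (4.7%), each over fewer cells. Between the libraries, 377 genes (6.81%) passed 2-fold within hashtag 1 and 470 (8.49%) within hashtag 2. Genes past 2-fold over all members and within each hashtag numbered 24 higher (0.434%) and 51 lower (0.922%).

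Apoe, which encodes a lipid carrier protein, was the lowest of the genes chosen by the naming rule. It had 0 to 49 UMIs per control member (median 10) and 0 to 11 in the Utx-labelled library (median 0), and was seen in 40 of 43 and 11 of 34 cells. In the band of 100 or more the control cells had 2 to 19 UMIs and the others 0 to 1. The ranges overlapped in the lowest band (0 to 41 and 0 to 3) and in the middle band (0 to 49 and 0 to 11). How many other genes separate the cells of a band was not tested. Summed Apoe (chr7:19696109-19699188) was 567 and 27 UMIs, or 626 and 36.7 CPM, a log2 ratio of -4.04 (-4.71 to -3.54), with -3.34 in hashtag 1 and -4.58 in hashtag 2. Without the members of 2 or more Cma1 UMIs it was -4.80. In neutrophil-low cells without Prss34 and Mcpt8, Apoe was likewise lower, at 247 and 22.2 CPM, and whether the libraries differed more in basophil progenitors was not tested. Neutrophil-rich cells with an Apoe UMI were 3.90% and 1.22%.

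Other genes were low in members and in the neutrophil-low cells alike. Ifitm1, an interferon-induced membrane protein, had 700 and 115 UMIs, with a median of 8 per control cell and 0 in the others, and a log2 ratio of -2.30 (-2.60 to -2.02). A single control cell held 22.1% of its UMIs. Ifitm1 in the neutrophil-low cells was at 148 and 42.0 CPM. Eya2, a transcriptional coactivator, had 47 UMIs in 28 control members and 1 UMI in the Utx-labelled library, a log2 ratio of -4.29 with a wide interval (-10.59 to -2.71), and stood at 20.2 and 0.840 CPM in the neutrophil-low cells. Ptger3, a prostaglandin E receptor, was at 59.6 and 6.79 CPM in members (log2 ratio -2.90, -4.81 to -1.82) and at 23.2 and 2.18 CPM in those cells. Cd244a, a receptor of the SLAM family, was at 66.3 and 12.2 CPM in members (-2.31, -3.63 to -1.42) and at 24.9 and 5.13 CPM there. The integrin gene Itgal was lower in members (57.4 and 14.9 CPM) and in those cells (36.1 and 9.49 CPM).

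Tyrobp, Nkg7 and Ltb4r1 were lower in the members, while their levels in the neutrophil-low cells lay closer together. Tyrobp, a signalling adaptor of activating receptors, was seen in all 43 control members (1 to 29 UMIs, median 7) and in 23 of 34 others (0 to 11, median 2). Its summed level was 448 and 93.8 CPM, a log2 ratio of -2.24 (-2.65 to -1.89), with -1.51 and -3.10 by hashtag. In the neutrophil-low cells Tyrobp was at 211 and 204 CPM and in neutrophil-rich cells at 966 and 1013 CPM. Nkg7, a granule membrane protein, was at 421 and 130.5 CPM in members (-1.68, -2.03 to -1.36) and at 334 and 293 CPM in the neutrophil-low cells. Ltb4r1, a leukotriene B receptor, was at 71.8 and 14.9 CPM in members and at 30.6 and 27.5 CPM there. Cyp11a1, the steroid side-chain cleavage enzyme, was at 120 and 32.6 CPM (-1.84, -2.59 to -1.24). Il4, the hallmark cytokine of basophils, had 47 UMIs in 28 control cells and 10 UMIs in 7 others (-1.83, -3.08 to -0.93). Both were near 0 outside the members. In the highest protease band both were short of 2-fold, at -0.70 (-2.16 to 0.35) for Il4 and -0.86 for Cyp11a1, against -3.35 and -2.46 in the lowest. The difference between these contrasts was not tested.

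The naming rule also listed Acss1, Hvcn1, Lcp2 and Rnase6 among the 12 lowest genes, with log2 ratios from -2.37 to -1.76. Lcp2, the SLP adaptor downstream of the IgE receptor, was at 68.5 and 14.9 CPM and was seen in 32 and 8 cells. Hvcn1, a proton channel, was at 57.4 and 12.2 CPM, and its log2 ratio was -0.94 in hashtag 1 and -3.32 in hashtag 2. For 10 of these 12 genes the ratio was further from 0 among hashtag 2 cells, all but Il4 and Rnase6.

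**Figure D3:**
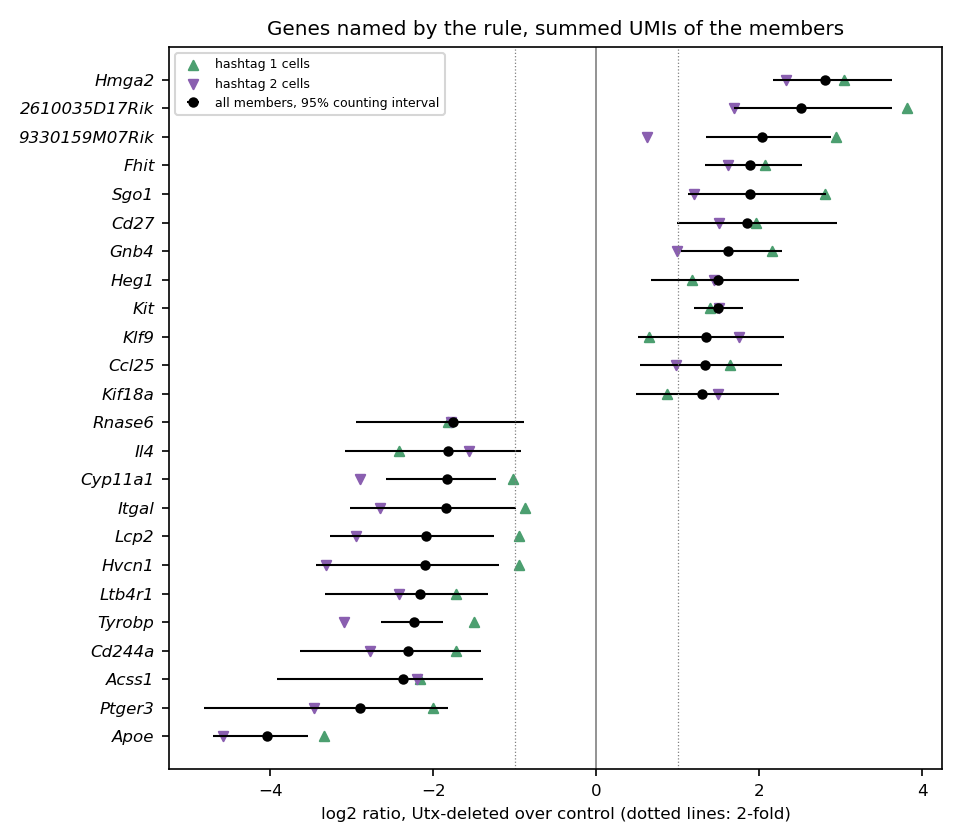
Log2 ratios (Utx-labelled library over control, horizontal) of the 24 genes chosen by the naming rule, from summed member UMIs, with 95% counting intervals as bars and the ratio within hashtag 1 and hashtag 2 cells as triangles. Apoe stands lowest at -4.04 and Hmga2 highest at 2.80, and the triangles have the sign of the overall ratio for every gene because the naming rule required it.

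Among the 12 highest genes, Hmga2 led. Hmga2 (chr10:120361275-120476469) encodes a chromatin architectural protein of fetal and self-renewing stem cells. It had 0 to 6 UMIs per control member (median 0, 10 cells with a UMI) and 0 to 17 in the Utx-labelled library (median 2, 22 cells). The ranges overlapped, and the log2 ratio was 2.80 (2.17 to 3.62), with 3.04 and 2.32 by hashtag. By band the log2 ratio was 3.61 and 3.81 in the lowest and middle bands and 1.47 in the highest. The control side of the first pair rests on 3 UMIs in 1 cell of the lowest band and 1 UMI in each of 3 cells of the middle band. Hmga2 is compared with other cells next. In neutrophil-low cells without Prss34 and Mcpt8 Hmga2 was at 45.5 and 33.6 CPM, and in neutrophil-rich cells at 4.22 and 15.4 CPM. Fhit, a nucleotide hydrolase gene, was at 36.4 and 137 CPM (1.88, 1.33 to 2.53) and was higher in each of the 3 bands, with ratios of 1.30, 1.12 and 2.65. Cd27, a receptor of the TNF family found on early progenitors, was at 14.4 and 54.4 CPM (1.85, 0.99 to 2.95) and was seen in 9 and 19 cells. Its ratio was 2.72 in the lowest band and 0.53 in the highest.

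The remaining genes of this group were 2610035D17Rik, 9330159M07Rik, Sgo1, Gnb4, Heg1, Klf9, Ccl25, Kif18a and Kit, with log2 ratios from 1.30 to 2.51. Sgo1, which guards sister chromatid cohesion, was at 18.8 and 72.0 CPM, and Kif18a, a mitotic kinesin, at 19.9 and 50.3 CPM. Kit (chr5:75574916-75656722), the stem cell factor receptor, had 130 and 298 UMIs and a log2 ratio of 1.49 (1.19 to 1.81). The 6 members with Cma1 held 64.1% of the 298, and the 2 control cells 29.2% of the 130. Without them Kit was at 103.5 and 163 CPM, a log2 ratio of 0.65, short of 2-fold. Without the 6 alone it was 0.19. In the highest protease band, 9 of the 24 genes were short of 2-fold: Hvcn1, Cyp11a1, Il4 and Rnase6 (-0.97 to -0.70) among the lower and Sgo1, Cd27, Gnb4, Klf9 and Kif18a (-0.40 to 0.53) among the higher.

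**Figure D4:**
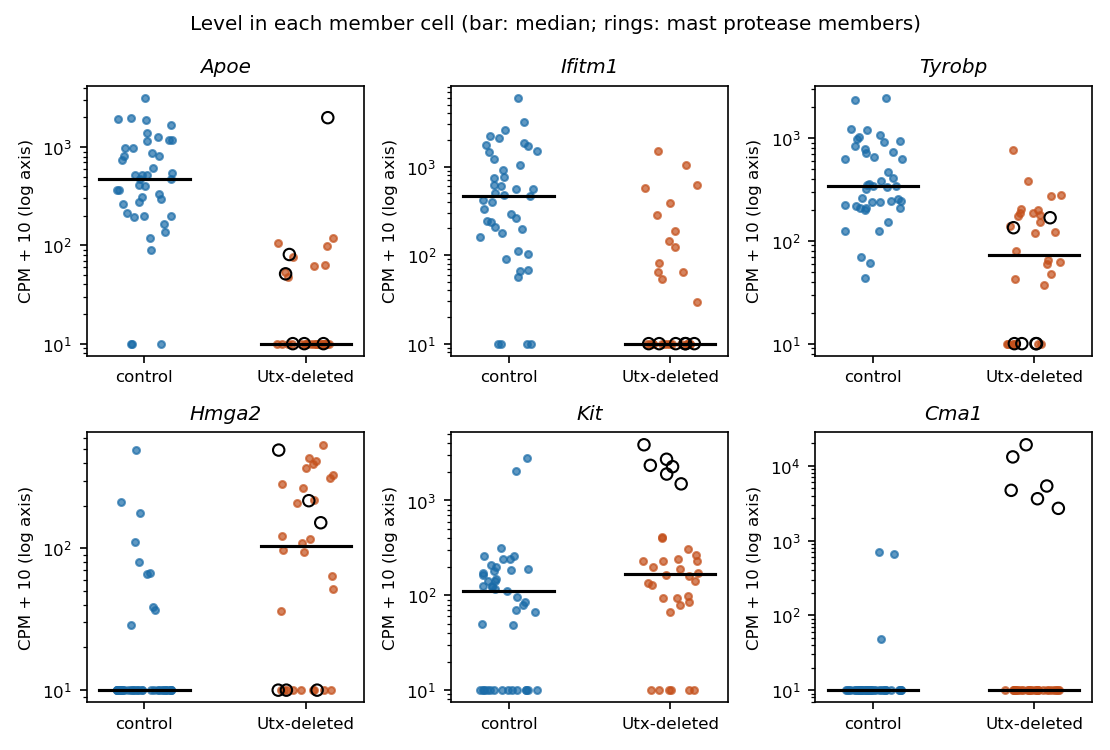
CPM plus 10 on a log axis in each member for Apoe, Ifitm1, Tyrobp, Hmga2, Kit and Cma1, control (43 cells) beside the Utx-labelled library (34 cells), with the median as a bar and rings around the 6 members with at least 10 mast cell protease UMIs. Apoe, Ifitm1 and Tyrobp sit lower in most cells of the Utx-labelled library, while its highest Kit and Cma1 values are the ringed cells.

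Pathway lists were read by counts, since the background was 2.54% of 8348 genes with at least 20 UMIs past 2-fold higher and 3.5% past 2-fold lower, 6.04% in all. The lists and members were chosen with earlier results of these data known. Of 24 such genes of the basophil programme, 2 were higher (Gzmb, Cd69) and 7 lower (Il4, Itga2, Ifitm1, Cyp11a1, Il18rap, Ccl9 and Aqp9), with a median of -0.35. The median was 0.18 among hashtag 1 members and -0.996 among hashtag 2 members, so its direction depended on the hashtag. Ccl9, a chemokine, was at 134 and 47.6 CPM, lower in both hashtags (-1.13 and -1.86). Its ratio was -0.09 in the lowest band, where 15 of 34 Utx-labelled members sit, and -3.27 and -2.50 in the others. Itga2 and Il18rap were lower in hashtag 2 (-2.22 and -2.21) and had ratios above 0 in hashtag 1 (0.28 and 0.19), and in the highest band they were short of 2-fold (-0.21 and -0.41). Srgn, the granule proteoglycan, was at 3089 and 2598 CPM, and Hdc at 312 and 178 CPM.

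In IgE receptor signalling, 1 of 22 genes was past 2-fold higher (Prkcb) and 2 lower (Lat and Lcp2), with a median of -0.26. The kinases Lyn, Syk and Fyn, which act first below the receptor, had log2 ratios of -0.03, 0.23 and -0.34. The receptor chains had -0.86 (Fcer1a), -0.31 (Ms4a2) and -0.87 (Fcer1g). Fcer1a was nearly level in the highest band (997 and 942 CPM, -0.08). Under 20 alternatives its ratio went from -1.49 to -0.08 and was past 2-fold in 2. Fcer1g passed 2-fold at -1.32 when members with 2 or more Cma1 UMIs were left out of both libraries. Lat, the adaptor that links the kinases to calcium release, was at 35.3 and 10.9 CPM and likewise lower in the neutrophil-low cells (12.3 and 2.02 CPM). In the highest band its ratio was -0.82. Prkcb was at 53.0 and 154 CPM, and its log2 ratio of 1.52 became 0.34 without the Cma1 members.

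Among cytokine and growth factor receptors, 1 of 16 genes was past 2-fold higher (Kit) and 4 were lower, Csf2rb, Csf2rb2, Il18rap and Ccr1. Csf2rb encodes the beta chain shared by the receptors of interleukin-3, interleukin-5 and GM-CSF. It was at 146 and 62.5 CPM in the members, seen in 39 and 24 cells (-1.20, -1.74 to -0.73). Its ratio was under 2-fold in the lowest band (-0.57) and the highest (-0.64), and past it only in the middle one (-1.55, with 5 UMIs in the Utx-labelled library). Ccr1, a chemokine receptor, was at 87.2 and 32.6 CPM (-1.38) over all members. Its ratio was -1.47 in the highest band, 0.93 in the lowest and 0.65 in the middle. In the lowest band Ccr1 was seen in 1 control cell, with 1 UMI, and in 2 Utx-labelled cells. The highest Utx-labelled counts of the lowest and middle bands, 3 and 7 UMIs, were in members with mast cell proteases. Csf2rb was at 22.2 and 32.01 CPM in the neutrophil-low cells. Csf2rb2, its interleukin-3-specific copy, was at 26.5 and 6.79 CPM. The Csf2rb2 ratio was -1.65 in the lowest band (3 and 1 UMIs) and short of 2-fold in the middle (-0.88) and highest (-0.82). Reads shared by these near-identical genes may have been split or dropped in counting. The interleukin-3 receptor alpha chain Il3ra had a ratio of -0.38 (-0.97 to 0.17) and the interleukin-33 receptor Il1rl1 of -0.05 (-0.43 to 0.32).

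Transcription factors of the lineage were mostly within 2-fold, with 2 of 25 higher (Mitf, Gfi1), 1 lower (Cebpb) and a median of 0.02. Cebpb, a C/EBP factor of late myeloid genes, was at 234 and 91.1 CPM and was seen in 40 and 24 cells (-1.35, -1.78 to -0.96). Its ratio was short of 2-fold in the lowest and middle bands (-0.71 and -0.74) and past it in the highest (-1.105). Cebpa was at 322 and 248.7 CPM (-0.37), Gata2 at 660 and 468 CPM (-0.50), Gata1 at 43.1 and 42.1 CPM and Runx1 at 2977 and 2869 CPM. Gfi1 rests on 6 and 22 UMIs. Mitf, at 38.7 and 97.8 CPM, had a ratio of 1.32 that became 0.51 without the Cma1 members.

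Of the lipid mediator genes, 2 of 7 were past 2-fold lower, Cyp11a1 and Alox5ap, and none higher. Alox5ap, the partner protein of 5-lipoxygenase, was at 448 and 216 CPM (-1.05, -1.33 to -0.79), and its ratio was -0.26 in hashtag 1, -1.82 in hashtag 2 and -0.46 in the highest band. Alox5 itself had -0.33, with 0.46 and -1.07 by hashtag. In the granule and chymase locus list, 3 of 12 genes were higher, Gzmb, Cma1 and Mcpt4, all held by the Cma1 members described above. Ctsg, a protease gene of the same locus shared with neutrophil progenitors, was at 3114 and 3329 CPM.

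Cell cycle genes were mostly within 2-fold, and their direction differed between bands. Of 19 G1/S genes, which make DNA replication factors, 18 had ratios below 0, against 4440 of all 8348 genes with at least 20 UMIs. The G1/S median was -0.60, and 2 genes were past 2-fold lower (Rrm2 and Ccne2, the latter at 0.34 after thinning). The median was from -1.02 to -0.16 under 21 alternatives, none of which was the middle band alone. In that band the summed G1/S level was higher in the Utx-labelled library, at 1123 and 1921 CPM, with Rrm2 at a log2 ratio of 1.97, while it was lower in the lowest band (2388 and 1337 CPM) and in the highest (2334 and 1189 CPM). Of the 7 Utx-labelled cells in the middle band, 3 carried mast cell proteases, and they held 0, 10 and 5 of its 16 Mki67 UMIs. The middle band without them was not tested. Of 20 G2/M genes, 19 were above 0, against 3908 of all 8348 genes with at least 20 UMIs. Past 2-fold were 2 (Plk1 and Aurka, which were below 0 in the highest band, at -1.01 and -0.82). The G2/M median was 0.36. It was below 0 under 4 of 21 alternatives, at -0.82 with members from 10 protease UMIs per 10000, -0.64 in the highest band, -0.27 after thinning each cell to 2000 UMIs and -0.11 with equal weight for the bands. Rrm2, a ribonucleotide reductase subunit, was at 97.2 and 40.8 CPM and was seen in 15 and 10 cells. The proliferation marker Mki67 was at 265 and 289 CPM in 19 and 18 cells. Summed G2/M levels were 2739 and 3666 CPM in the lowest protease band, 1463 and 1109 CPM in the middle band and 2256 and 1133 CPM in the highest, so they were higher in the Utx-labelled library in the lowest band alone. All 7 interferon-stimulated genes with enough UMIs were below 0, against 4440 of all 8348 genes with at least 20 UMIs. The 7 had a median of -0.49, and 2 of them were past 2-fold (Isg15 and Usp18, with 18 and 3 UMIs each, and Isg15 at 0.23 in hashtag 1).

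The remaining lists held few genes with enough UMIs. Of the stem cell list, 1 of 8 was past 2-fold higher (Mecom) and 1 lower (Eya2). Mecom was higher in the lowest and middle bands (1.71 and 1.48) and went the other way in the highest, with 11 and 0 UMIs. Of immediate early genes, 1 of 6 was lower (Jun, 58.5 and 16.3 CPM), and of cyclin-dependent kinase inhibitors 1 of 4 (Cdkn2d, 45.3 and 14.9 CPM). Of cytokines and chemokines, 2 of 6 were lower (Il4 and Ccl9). None of 3 MHC class II genes was past 2-fold. In the eosinophil list 1 of 4 was higher (Prg2), and in the mast cell list 5 of 7 (Cma1, Mcpt4, Gzmb, Mitf and Kit). The mast cell median of 1.49 became -0.11 without the Cma1 members of both libraries.

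**Figure D5:**
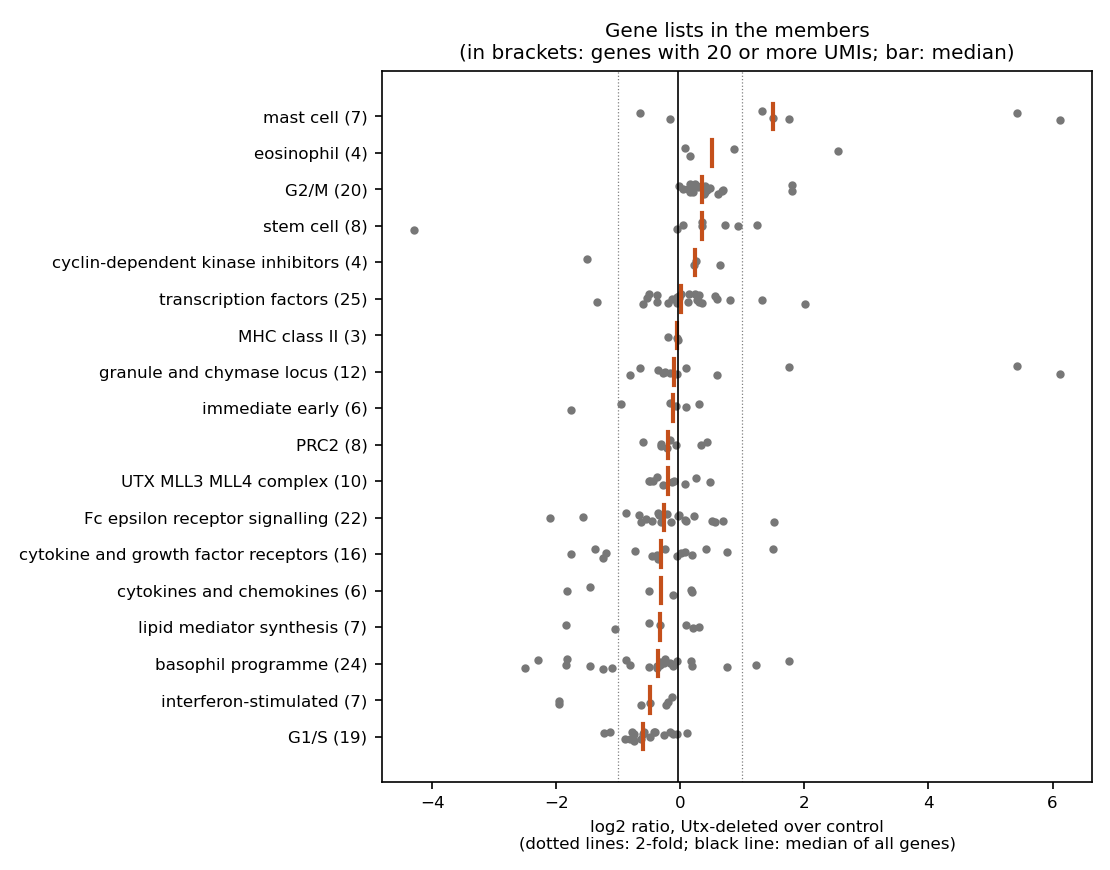
Log2 ratios (Utx-labelled library over control, horizontal) of the genes of 18 lists with at least 20 member UMIs, 1 grey point per gene, orange bars at list medians and a black line at the median of all genes (-0.03). The mast cell list has the highest median (1.49) and the G1/S list the lowest (-0.60).

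The antibody tags gave a readout of surface proteins that the rule did not use. Of 13 tags, 6 were past 2-fold as shares of all tag UMIs: CD34 (log2 ratio 2.27), CD117 (1.46) and B220 (1.24) higher and CD135 (-1.27), CD150 (-1.22) and CD11b (-1.07) lower. As centred log-ratios per cell, CD34 alone passed 2-fold (1.88), with CD117 at 0.98, CD11b at -0.83, CD150 at -0.43, B220 at 0.33 and CD135 at 0.0024. Median CD34 tag UMIs per cell were 8 (0 to 105) in the control and 24.5 (1 to 136) in the Utx-labelled library. By hashtag the CD34 ratios were 2.70 and 1.96, and without Cma1 members the ratio was 1.97. Among members of the highest protease band it was 0.54, short of 2-fold, with medians of 6 and 7.5, and the difference lay in the lower bands (11 and 36, 7 and 26). The Cd34 transcript had 100 and 193 CPM (0.94, 0.55 to 1.34), and its rho with the tag across cells was 0.44 and 0.63. In the neutrophil-low cells without Prss34 and Mcpt8, the CD34 tag medians were 17 and 23.

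CD117 and B220 were tied to the Cma1 members. Median CD117 tag UMIs were 62 (4 to 543) and 83.5 (13 to 1368), and 62 and 65 without the Cma1 members, when the log2 ratio was 0.72. The B220 ratio was 0.18 without them, and their B220 counts were 29 and 30 in the control and 17 to 161 in the others. CD135 and CD150 rest on medians of 0 and 1 UMIs in the control and 0 in the other library. CD41, an integrin chain of platelets, had medians of 15 and 6, and in neutrophil-low cells 9 and 3. CD48 had 861 and 652.5, against 776.5 and 610 in those cells. CD16/32, the low-affinity IgG receptors, had medians of 385 and 306.5 and a ratio of 0.02. By band the CD16/32 medians went in opposite directions, at 530 and 110 in the lowest, 305 and 486 in the middle and 385 and 434 in the highest. The 486 is the value of a member with mast cell proteases. Hashtags were uneven in the lowest band, and over all members the medians of hashtag 1 and 2 were 484 and 340.5 in the control and 421 and 148 in the other library. The rho of the CD16/32 tag with the protease level was -0.13 in the control and 0.48 in the other library. The neutrophil-low cells had CD16/32 medians of 98 and 237. Gr1 medians of 26 and 23.5 were far under the 928.5 and 1365 of neutrophil-rich cells.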

How the data were processed

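The authors' deposited files hold raw UMI counts for 32285 genes and 15 antibody tags, with 2 hashtags among the tags, in each barcode. They were made with Cell Ranger 7.1.0 on mm10 per the submitters' processing notes; the annotation and the cell-calling rule are not given in the sources used here. Libraries were 10x 3′ libraries per the labels' protocols. Everything else was computed with Python 3.11.15, numpy 2.4.6, scipy 1.17.1, pandas 2.3.3 and scanpy 1.11.5. Barcodes with at least 500 genes and under 10% mitochondrial UMIs were kept, which left out 349 control barcodes and 214 of the other library. As doublet treatment, barcodes with both hashtags at 100 or more UMIs and within 5-fold were dropped (380 and 699); doublets within a hashtag remain. Counts of members (905572 and 735896 UMIs) were summed per library and scaled to CPM, and gene ratios were compared with 1 UMI added. No test between groups was possible with 1 library each. Intervals at 95% are exact binomial ones for shares and ratios of counts and Newcombe's for the difference of shares, and a count of 0 is given as up to 3 counts. CPM sees only relative change, and fewer cells or less RNA per cell cannot be told apart in a sum.

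Named genes were those with at least 50 UMIs and the 12 highest and 12 lowest ratios past 2-fold, with the same sign in both hashtags and no cell holding over 20% of the UMIs, together with genes of 18 lists and the markers. The genes of the member rule, mitochondrial and Y-linked genes were left out of the 24. Members and lists were chosen with earlier results of these data known. Gene coordinates are those of GENCODE M21. The ratio and interval code was tested on simulated data. Alternatives changed the cell, member and gene limits, the scaling, and the cells included.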

Additional observations from a re-analysis of the deposited data

Results flagged for a closer look

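Kept cells outside the members also held mast cell proteases. In the Utx-labelled library 10 kept cells that missed the limit on Prss34 and Mcpt8 had at least 10 UMIs of Cma1, Mcpt4 and Tpsb2, against 0 in the control library. They are listed because they lie outside the compared cells and above the control. Their Prss34 and Mcpt8 UMIs were 0 to 6, with a median depth of 9730 UMIs, and 6 carried hashtag 1 and 4 hashtag 2. Neutrophil transcripts made up 0.091% to 21.8% of their UMIs (median 0.188%), so at least 1 of them also missed the neutrophil limit.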

How the results depend on the processing

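The share of members kept a lower value in the Utx-labelled library under all 14 alternatives, from -0.22 to -0.027 points. A change of sign was counted only for genes whose reported ratio was past 2-fold, and 14 of 4450 alternative gene ratios had it. Of the rest, 3834 stayed within the counting interval of the reported ratio and 602 left it. Sign changes of ratios nearer 0 are among these and were not counted. Hgf, for example, kept its sign under 9 of 20 alternatives, Gata1 under 10 and Mcpt8 under 12. The limit of 0.5% neutrophil transcripts chose the same 43 and 34 members, so its ratios could not move. The counts of higher and lower genes were 212 and 292 at 20 UMIs per gene (42.1% higher, against 30.4%), 23 and 47 at 100 UMIs, 266 and 518 at 1.5-fold, and 11 and 11 of 402 genes after thinning to 2000 UMIs, where Ccne2 was 0.34. Hashtag 1 alone gave 82 lower genes, with Il18rap at 0.19, Isg15 at 0.23 and Itga2 at 0.28. The highest band alone, chosen after seeing the data, gave 31 and 79 of 2229 genes, with Gnb4 at -0.40, Aurka at -0.82, Mecom at -2.60 and Plk1 at -1.01. Without members of 10 or more mast protease UMIs the mast cell median was -0.77, Cma1 -3.23, Gzmb -4.74, Mitf -0.38 and Prkcb -1.34, and 3 tags passed 2-fold. That limit removed 6 Utx-labelled and 0 control members and left the 2 control Cma1 cells in, so these lower values follow from a removal on 1 side. Without members of 2 or more Cma1 UMIs, chosen after seeing the data, the mast cell median was -0.11, Cma1 -0.56 and Gzmb -1.88. As centred log-ratios 1 tag passed 2-fold and CD135 was 0.0024. Except for the thinned counts, where fewer genes were tested, the cause was not tested. The share of higher genes was 39.7% with members from 5 UMIs and 39.5% without 3 Prg2-rich members of each library. Depth limited genes under 20 UMIs, and 77 cells in 2 libraries allow no statement on variation between mice. No paired analysis was possible because the groups share only 1 replicate number.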
